A study of Mus musculus with 7 samples.

Results

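This account follows 37 genes of DNA replication and S phase in thymic epithelial cells of the mouse, chosen as a list of gene names and measured in droplet single-cell RNA sequencing. All 37 are present among the 20839 genes of the files, and 36 of them are present in every one of the 7 libraries, the exception being Exo1, which is listed in 5. Each library was a pool of 3 thymi of C57BL/6 mice, sorted for EpCAM+ CD45- cells. Isotype control antibody was given to 2 of the libraries' mice, sampled at week 2 (age 4 weeks) and week 10 (age 12 weeks), and 100 ug of anti-RANKL, an antibody that blocks the cytokine RANKL, was given in 3 treatments within 1 week to the mice of 4 libraries, sampled at week 2 (age 4 weeks), week 4 (age 6 weeks), week 6 (age 8 weeks) and week 10 (age 12 weeks). The last library, called the Aire trace, came from Aire-CreERT2-R26-CAG-Stopfl-zsGreen mice of 6 weeks that had been given tamoxifen (2 mg) on alternate days over 10 days, so that cells in which the Aire promoter had driven Cre carried ZsGreen. No condition has a second library, so differences between libraries have no replicate check, and age, treatment and library cannot be told apart at weeks 4 and 6.

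A dividing cell copies its DNA in S phase and separates it in mitosis. The copying starts at origins loaded with the MCM helicase, proceeds with polymerases held by the sliding clamp PCNA, and depends on a supply of deoxynucleotides and on new histones and methylation marks for the copied strands. In the thymic medulla, Aire, which drives the expression of tissue-restricted antigens, and Ccl21a, a chemokine that attracts T cells, mark different epithelial cells, and RANKL is a cytokine known to promote the development of Aire-expressing cells.

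Many replication genes are known targets of E2F transcription factors, so the promoters of the members were read from RefSeq windows of 300 bases (GRCm38.p6, 250 bases before to 50 after the gene's start), which matched 27 of the 37. The letters TTTGGCGC, TTTCGCGC, TTTCCCGC and TTTGCCGC, searched on both strands as forms of the E2F motif, occurred in the windows of 13 of the 27 members (48.1%), against 2.61% of 27025 genes with a window and 3.69% of the 14715 of these genes that the files list. The letters CCAAT, the core of the NF-Y motif, occurred in 19 of 27 (70.4%, against 41.9% of the listed genes) and the GC box GGGCGG in 17 of 27 (63.0%, against 56.7%). The letters TTTGAA, the core of the CHR element of many mitotic genes, were in 4 of 27 (14.8%, against 15.7%). A stretch of 100 bases is shown for 5 members that span the range of matches, the helicase subunits Mcm5 (chr8:75109339-75109438, plus strand) and Mcm6 (chr1:128359731-128359830, minus strand), the polymerase subunit Pola1 (chrX:93632226-93632325, minus strand), and the nucleotide enzymes Rrm1 (chr7:102441595-102441694, plus strand) and Tyms (chr5:30073626-30073725, minus strand). All 5 lie upstream of the annotated gene start and overlap no annotated exon. Capitals mark the E2F letters and CCAAT on either strand. The 2 E2F matches of Mcm5 overlap each other, as do 2 of the 3 of Mcm6.
Mcm5: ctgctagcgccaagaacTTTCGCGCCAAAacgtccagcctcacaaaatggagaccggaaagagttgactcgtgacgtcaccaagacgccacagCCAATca
Mcm6: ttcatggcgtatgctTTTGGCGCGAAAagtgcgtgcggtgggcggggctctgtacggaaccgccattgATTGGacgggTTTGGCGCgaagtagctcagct
Pola1: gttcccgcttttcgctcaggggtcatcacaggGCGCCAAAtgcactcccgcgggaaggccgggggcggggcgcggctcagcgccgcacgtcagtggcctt
Rrm1: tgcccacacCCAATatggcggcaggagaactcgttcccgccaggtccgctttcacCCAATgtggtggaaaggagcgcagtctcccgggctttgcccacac
Tyms: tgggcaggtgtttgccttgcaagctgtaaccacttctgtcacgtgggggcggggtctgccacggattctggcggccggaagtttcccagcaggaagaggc

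The median depth of a cell ranged from 4300 UMIs (unique molecules counted) in the anti-RANKL week 6 library to 16809 in the isotype week 2 library. Cells with a UMI of Ptprc, which encodes CD45, were set aside, and each of the others was thinned at random to 2000 UMIs, so that all were counted at equal depth. This left 8048 cells and removed 172 shallower ones, 111 in anti-RANKL week 4 and 61 in anti-RANKL week 6. Across libraries, 50 of 8403 barcodes occurred more than once. All 10 epithelial markers fixed for this work were detected, with a summed level of 104.4 UMIs per 10000, and 15 T cell markers summed to 0.714. Levels are given throughout as UMIs per 10000 UMIs. They count transcript ends, which are not divided by gene length.

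Replication genes were sparse at this depth. No member was detected in 41.7% of cells, the mean was 1.07 of the 36 members listed in every library, and the highest number in a cell was 16. A cell with at least 6 members is called S-gene-rich. This held for 185 of 8048 cells (2.3%, exact binomial 95% interval 1.98 to 2.65%, covering counting error only), and for 22.2% of the same cells when all their UMIs were used. There were 61 cells with 5 members, just under the threshold, and 50 with 6. The S-gene-rich cells had a median of 19816 UMIs before thinning against 8038 in the other cells. Their summed level of epithelial markers was 86.9, with all 10 detected, and Krt8, a keratin, was found in 83.2% of them. T cell markers summed to 1.08 over these cells and to 0.167 to 15.0 in single libraries, the highest being anti-RANKL week 4 with 7 S-gene-rich cells, and 11 of the 15 were detected, with Cd4, Rag1, Rag2 and Themis at 0, 8 in more of these cells than of all cells, such as Tcf7 (3.78 against 2.57%) and Lat (2.16 against 0.671%), and 3 in fewer, such as Bcl11b (1.08 against 2.75%). UMIs of 2 or more T cell markers at full depth were found in 38 of the 185, and in 690 of all 8048 cells, which were shallower as given above. The part of T cell RNA or of more than 1 cell in a droplet in these counts was not tested.

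Replication genes were more numerous in cells with mitotic genes, but most cells with 2 to 4 mitotic genes were not S-gene-rich. Among cells with none of the mitotic genes Top2a, Birc5, Cdk1 and Ube2c, 67 of 7337 (0.913%) were S-gene-rich. The share was 64 of 459 (13.9%) with 1 mitotic gene and 54 of 252 (21.4%, interval 16.5 to 27.0%) with 2 to 4. Within the last class it was 43 of 169 (25.4%) with 2 mitotic genes, 10 of 62 (16.1%) with 3 and 1 of 21 (4.76%) with 4. With all UMIs these shares ran the other way, at 85.8, 91.9 and 95.2%. The summed level of the members was 4.88 in cells with no mitotic gene, 13.4 with 1 and 21.2 with 2 to 4. With all UMIs the shares were 18.3, 49.2 and 88.1%, at median depths of 7838, 12375 and 19709 UMIs. Of the S-gene-rich cells, 36.2% had no mitotic gene at this depth, and 198 of the 252 cells with 2 to 4 mitotic genes were not S-gene-rich.

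To test single members, UMIs were summed per library in cells with 2 to 4 mitotic genes and in cells with none, thinned to equal totals within each library, and compared with limma voom across all genes. The fit used 6 libraries, since anti-RANKL week 2 had too few such cells. Only 9 of the 37 members had the 50 UMIs needed, a filter that leaves out most of the list. Of these 9, 7 were higher in cells with mitotic genes, where 11.6% of all 2649 genes tested were higher, and none was lower, where 9.66% of all genes were. All 9 had positive values, 8 of them at an unadjusted p under 0.05, and limma trend also called none lower. With equal totals, a member reaches 50 UMIs mainly through the class where it is higher, so these counts say nothing of the list as a whole. With every gene of at least 1 UMI kept, all 37 members were tested, of which 9 were higher (0.797% of 16177 genes) and 0 lower (0.365%). Epithelial markers moved too, with 5 of the 9 tested lower in cells with mitotic genes. T cell markers summed to 1.51 in cells with 2 to 4 mitotic genes, against 0.714 in all cells, and to 10.9 against 0.593 in anti-RANKL week 4. Their part in the members' values was not tested. Rrm2, the subunit of ribonucleotide reductase made in S phase, had a level of 1.07, 1.54 and 3.64 (lowest, median and highest library) in cells with 2 to 4 mitotic genes and of 0.0345, 0.102 and 0.123 in cells with none. The ranges did not overlap, and the log2 fold change was 3.29 ± 0.45 (SE, n = 6 libraries, limma voom adjusted p = 8.87e-07). Tyms, the thymidylate synthase, had 0.357, 0.891 and 1.59 against 0.0498, 0.0884 and 0.123, again without overlap, with a log2 fold change of 2.81 ± 0.45 (limma voom adjusted p = 1.09e-05).

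The other 5 that rose belong to different steps of replication. Gmnn encodes geminin, which blocks the reloading of origins, and rose by 2.07 ± 0.47 on the log2 scale (limma voom adjusted p = 0.00132). Mcm7, a subunit of the helicase, had levels of 0.357, 0.945 and 1.28 in cells with mitotic genes against 0.162, 0.261 and 0.324 in those with none, and rose by 1.82 ± 0.38 (adjusted p = 0.000534). The clamp gene Pcna had 1.07, 1.67 and 2.06 against 0.311, 0.448 and 0.565 and rose by 1.73 ± 0.38 (adjusted p = 0.000874). For Mcm7 and Pcna too, every library was higher with mitotic genes than the highest library without. Usp1, a deubiquitinase of PCNA, rose by 1.92 ± 0.40 (adjusted p = 0.000468) and Rfc2, a subunit of the clamp loader, by 0.89 ± 0.30 (adjusted p = 0.0289). Without the filter of 50 UMIs, Tyms (limma voom adjusted p = 0.001), Rrm2 (0.0278), Gmnn (0.0316) and Mcm7 (0.0493) still passed, while Usp1 (0.0564), Pcna (0.149) and Rfc2 (0.334) did not. Over all alternatives that could test it, Rfc2 lost its call in 6 of 20, Pcna in 3 of 20, Usp1 in 2 of 13 and Gmnn in 1 of 10. Slbp, which binds the stem-loop of histone mRNAs, had a log2 fold change of 0.85 (adjusted p = 0.0651) and the histone chaperone gene Nasp one of 1.25 (adjusted p = 0.16). With all UMIs of the cells, 36 members could be tested and 33 were higher (13.1% of 11092 genes), in every role, with a median of 1.87 over the members against -0.17 over all genes, and none was lower (22.3% of all genes). The 3 that did not pass were Pold3, Ubr7 and Ung. Without cells holding 2 or more T cell markers, 5 members could be tested at 2000 UMIs and 4 were higher (11.7% of all genes), and within the Aire class 1 of 5 was (8.47%). It was also 4 of 5 without isotype week 10 (12% of all genes) or without the Aire trace (16.6%), and 3 of 5 without anti-RANKL week 10 (9.7%). The same filter sets which members enter these counts, and nothing is read from their shares. Of 61 other replication genes, 10 could be tested at 2000 UMIs and 6 rose, where 11.6% of all 2649 genes did. These were Dut (log2 fold change 2.27), Lig1 (2.24), Rpa3 (2.06), Rnaseh2c (1.61), Dctpp1 (1.37) and Rnaseh2b (1.22). Of 28 genes of cell cycle control, 7 could be tested and 4 rose (11.6% of all genes), Ccna2 (3.66), Cdkn2c (1.14), Cdk4 (1.07) and Ccnd2 (0.93). In both lists a gene passes the filter mainly through the class where it is higher, so nothing is read from these counts.

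The members were then described by the kinds of cell in which their UMIs lay. Each member's level was taken in cells sorted by the other members, as S-gene-rich without a mitotic gene (57 to 67 cells, by member), S-gene-rich with 2 to 4 mitotic genes (47 to 54 cells), mitotic only, with 2 to 4 mitotic genes and fewer than 4 of the other members (156 to 166 cells), and neither, with no mitotic gene and not S-gene-rich (7270 to 7280 cells). The sorting uses genes of the same list, so these levels are a description with no test. Among the genes of licensing and the helicase, Cdc6, which loads MCM on origins, had a level of 0.379 in S-gene-rich cells without a mitotic gene (5 UMIs), 0.0926 in those with 2 to 4 (1 UMI) and 0 in mitotic-only cells. Mcm5 had 1.80, 1.37 and 0.314 in the same order, and 0.0742 in cells that were neither. Mcm6 had 2.11, 1.83, 0.283 and 0.150. Between S-gene-rich cells without and with mitotic genes, the helicase genes showed no common direction, on few UMIs. Mcm2 had 0.859 and 1.02 (11 and 11 UMIs), Mcm4 0.583 and 0.769 (7 and 8) and Gins2 0.397 and 0.755 (5 and 8). Mcm7 had 2.29 and 2.26 (27 and 24 UMIs). Whether such differences exceed counting error was not tested. In mitotic-only cells the 6 MCM genes were lower than in both kinds of S-gene-rich cell, at 0.127 to 0.562. Gmnn had 1.02 without and 2.5 with mitotic genes, and 0.440 in mitotic-only cells.

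Among the genes of nucleotide supply, Rrm2 was highest where both kinds of genes were found. It had 2.58 in S-gene-rich cells without a mitotic gene, 5.21 in those with 2 to 4, 0.848 in mitotic-only cells and 0.0536 in the rest. Tyms had 1.11, 2.14, 0.640 and 0.0797, and was highest in S-gene-rich cells with 1 mitotic gene (2.83). The share of a member's UMIs that lay in cells that were neither was smallest for the DNA exonuclease gene Exo1, with few UMIs (23.1%), and next for Rrm2 (28.7%). Ung, which removes uracil from DNA, had 0.902 in S-gene-rich cells without a mitotic gene (11 UMIs), against 0.0926 with 2 to 4 (1 UMI) and 0.0962 in mitotic-only cells (3 UMIs). Among the clamp and polymerase genes, Pcna had 3.02, 4.22, 0.802 and 0.452. Pold3, a subunit of DNA polymerase delta, was at 0 in S-gene-rich cells without a mitotic gene, where 3 UMIs over the class is the limit that a count of 0 allows, and at 0.472 with 2 to 4 (5 UMIs). Among the chromatin genes, Uhrf1, which recruits maintenance methylation to copied DNA, had 1.25, 1.48, 0.586 and 0.0804, and Ubr7, a ubiquitin ligase gene, had 0.303, 0.0926, 0.0949 and 0.0701. Between 80.2 and 87.9% of the UMIs of Rfc2, Slbp, Cdca7, Pold3 and Ubr7 lay in cells that were neither. The cyclin gene Ccne2 had 0.781, 1.44, 0.0637 and 0.0220.

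**Figure D1:**
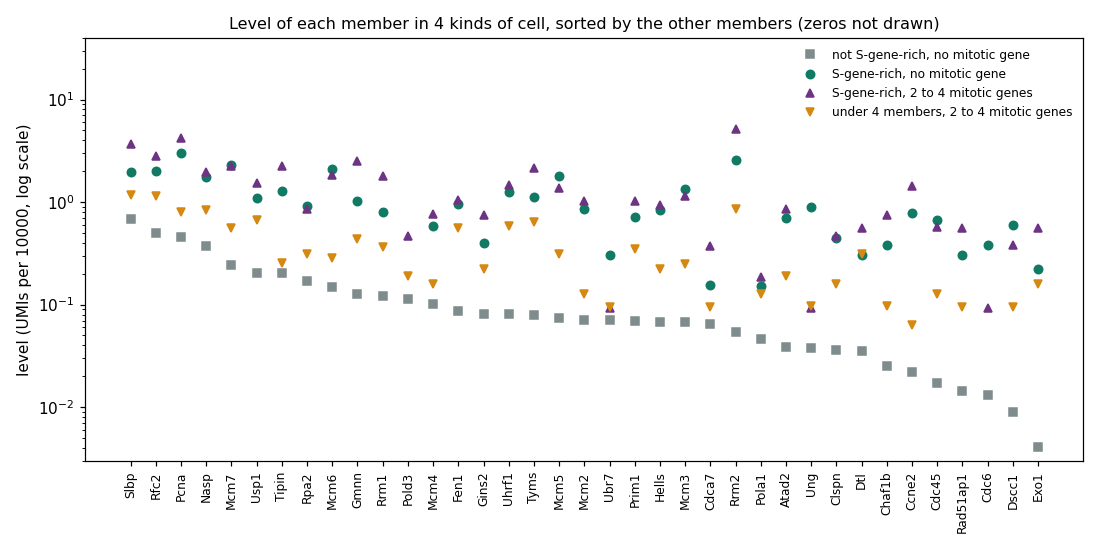
Level of each of the 37 members (UMIs per 10000, log scale) in cells sorted by the other members and by the 4 mitotic genes, with zeros not drawn. Rrm2 goes from 0.0536 in cells that are neither to 5.21 in S-gene-rich cells with 2 to 4 mitotic genes, while Ubr7 stays between 0.0701 and 0.303 in the 4 kinds.

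Cells were then compared by Aire and Ccl21a, with the study's cutoffs. The Aire class had any Aire and Ccl21a at or below 4 on the deposited scale (2673 cells, median 12907 UMIs), and the Ccl21a class had Ccl21a above 4 and no Aire (2961 cells, median 7042 UMIs). At equal depth, 128 cells of the Aire class were S-gene-rich (4.79%, interval 4.01 to 5.67%) against 34 of the Ccl21a class (1.15%, 0.796 to 1.60%). Cells with both had 10 of 382 (2.62%) and cells with neither 13 of 2032 (0.640%). With all UMIs the shares were 35.8, 16.5, 35.1 and 10.2% in the same order. The Aire class had the higher share and the higher summed level in 6 of 7 libraries, and the higher mean number of members in 5 of 7. It held 69.2% of all S-gene-rich cells. Aire status was read at full depth, and deeper cells have more chance of an Aire UMI.

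The order of the classes was not the same at every mitotic status. Among cells with no mitotic gene, 48 of 2180 Aire-class cells (2.2%) and 10 of 2855 Ccl21a-class cells (0.350%) were S-gene-rich. With 1 mitotic gene it was 50 of 311 (16.1%) and 7 of 67 (10.4%). Among cells with 2 to 4 mitotic genes the order was the opposite at 2000 UMIs, with 30 of 182 (16.5%, interval 11.4 to 22.7%) and 17 of 39 (43.6%, 27.8 to 60.4%), and summed levels of 18.4 and 32.6. With all UMIs the Aire class had the higher share at every status, with 27.9 against 15.3% for no mitotic gene, 58.5 against 28.4% for 1 and 91.2 against 84.6% for 2 to 4, the last at median depths of 26560 and 12355 UMIs. Of these 39 Ccl21a-class cells, 15 came from the Aire trace, where 7 were S-gene-rich, and 8 from isotype week 10, where 6 were. The 8 of anti-RANKL week 4 had none. The share was higher in the Ccl21a class in 5 of the 6 libraries that had such cells of both classes, the exception being isotype week 2, where the Ccl21a class had 1 such cell. The class had only 3, 2 and 2 such cells in anti-RANKL weeks 2, 6 and 10, and the Aire class 2 in anti-RANKL week 2. Since S-gene-rich is a score over the members, no test was made.

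Single members were tested between the classes over all 7 libraries, with the library as a block and cells at 2000 UMIs. Of 31 members with enough UMIs, 5 were higher in the Aire class, where 21.6% of all 11426 genes tested were higher, and 1 was lower, where 21.4% of all genes were lower. The share of members called higher was thus below that of all genes here, but it was above it in several alternatives, by the most with all UMIs. Others were 13 of 31 with voom's fixed offset (25.8% of all genes), 9 of 30 with Ccl21a above 5 (23%), 7 of 17 with equal totals (21.1%), 8 of 31 without the library block (22.1%), and 11 of 30 without the anti-RANKL week 4 library (24.2%), which has 37 cells in the Aire class. With another seed, every gene of at least 1 UMI or no isotype week 10 library, it was above by less than 2 percentage points. In the fit as planned, the median log2 fold change of the members tested was 0.30, against -0.09 over all genes. Uhrf1 had a level of 0.125, 0.270 and 0.493 (lowest, median, highest library) in the Aire class and 0, 0.0424 and 0.211 in the Ccl21a class. It was higher in the Aire class in 7 of 7 libraries, though the ranges overlapped, with a log2 fold change of 2.2 ± 0.35 (SE, n = 7, limma voom adjusted p = 0.000174). Gmnn had 0.244, 0.288 and 0.450 against 0.0424, 0.0939 and 0.198, without overlap, and a log2 fold change of 1.56 ± 0.26 (limma voom adjusted p = 0.000268).

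The other members that passed did so less evenly. Rrm2 had 0, 0.308 and 0.425 in the Aire class against 0, 0.0745 and 0.151 and was higher in 6 of 7 libraries (1.72 ± 0.44, limma voom adjusted p = 0.00586). Clspn, which encodes the checkpoint mediator claspin, was higher in 6 of 7 (1.62 ± 0.50, limma voom adjusted p = 0.0183), but not without cells that hold 2 or more T cell markers (0.68, adjusted p = 0.517). Slbp had 0.811, 0.953 and 2.03 against 0.588, 0.661 and 0.975 (0.74 ± 0.20, limma voom adjusted p = 0.00849). Cdca7, which recruits the remodeller HELLS to chromatin, was lower in the Aire class in 5 of 7 libraries (-1.16 ± 0.42, limma voom adjusted p = 0.0411), a call that 10 of 20 alternatives did not keep, 1 of which, at 4000 UMIs, gave a positive value. The 6 MCM genes had log2 fold changes from -0.27 (Mcm7) to 0.62 (Mcm5) and none passed, nor had an unadjusted p under 0.05. The signs of Mcm2, Mcm4, Mcm5, Mcm6 and Mcm7 each changed under some alternative. Pcna had 0.31 (adjusted p = 0.0974), Tyms 0.75 (adjusted p = 0.0899) and Hells 0.80 (adjusted p = 0.115).

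With all UMIs of the cells the picture was broader. All 37 members could be tested, 24 were higher in the Aire class and 0 lower (25 and 0 at an unadjusted p under 0.05), against 37% and 27% of 16168 genes, with a median of 0.63 against 0.10. By role, 7 of 7 genes of the fork, checkpoint and repair were higher, 6 of 10 of licensing and the helicase, 4 of 8 of the polymerases and clamp, 2 of 3 of nucleotide supply, 4 of 8 of chromatin and histones, and Ccne2. The depth of the classes differs here, as given above. T cell markers summed to 0.980 in the Aire class and 0.419 in the Ccl21a class. Markers of other blood cells moved with the Aire class as well, with a summed level of 7.44 against 0.336 in the Ccl21a class and 5 of the 6 tested higher at 2000 UMIs. Their part in the members' levels was not tested. Among 61 other replication genes at 2000 UMIs, 45 could be tested, 8 were higher and 4 lower. Of all 11426 genes tested, 21.6% were higher and 21.4% lower, and nothing is read from the count of this list. The largest log2 fold changes of the list were those of Pold1 (2.59), Cdc7 (2.08), Pola2 (1.93), Rnaseh2b (1.91) and Donson (1.40). Among 28 genes of cell cycle control, 23 could be tested, 8 were higher (21.6% of all genes) and 3 lower (21.4%). They were led by Cdkn2a (2.95), Ccna2 (2.18), E2f1 (2.14), Ccnd2 (2.09) and Cdkn1c (1.99).

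**Figure D2:**
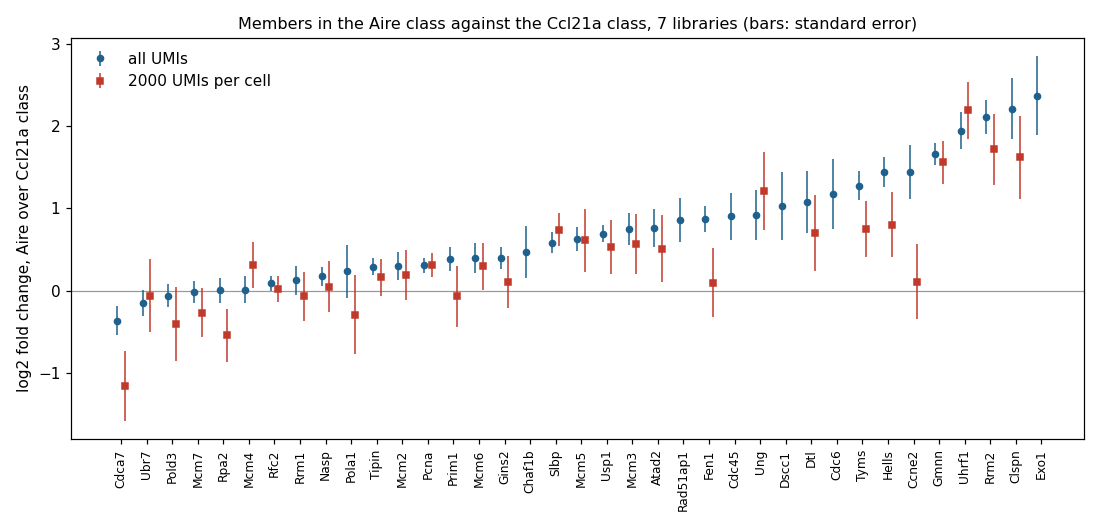
Log2 fold change of each member, Aire class over Ccl21a class, with its standard error over 7 libraries, for all UMIs (circles) and for 2000 UMIs per cell (squares, 31 members). Uhrf1, Rrm2, Clspn and Gmnn have the highest values at 2000 UMIs among the members called, between 1.56 and 2.2.

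A further comparison asked whether the class difference was the same in cells with at least 1 mitotic gene and in cells with none, over 6 libraries (anti-RANKL week 4 had too few cells). At 2000 UMIs and equal totals only Pcna, Rfc2 and Slbp could be tested, and none passed in either status (12.9 and 12.8% of 1753 genes higher and lower with mitotic genes, 11.9 and 13.4% without) or for the difference (2.22 and 1.71%). At an unadjusted p under 0.05 it was 1 of the 3 in each, Slbp, and limma trend called none. With all UMIs, 32 members could be tested, with mitotic status still read at 2000 UMIs. Cells with no mitotic gene by that reading may hold one at full depth. Their median depth over 7 libraries was 12176.5 UMIs in the Aire class and 6991 in the Ccl21a class. In cells with mitotic genes 0 were higher (13.5% of 7261 genes) and 1 lower (14%), Cdca7. In cells without, 4 were higher (15.8%), Slbp, Gmnn, Rrm2 and Uhrf1, and 1 lower (17%), Rfc2. The difference passed for 2, both lower (1.96%), Gmnn and Rrm2, and for 0 higher (1.32%). At an unadjusted p under 0.05 the counts of 0 were 1 and 0. In cells with no mitotic gene, Rrm2 was higher in the Aire class by 2.90 ± 0.54 on the log2 scale (limma voom adjusted p = 4.61e-05) and Gmnn by 1.93 ± 0.39 (limma voom adjusted p = 0.000148). In cells with mitotic genes the values were 0.04 ± 0.29 for Rrm2 and 0.03 ± 0.27 for Gmnn. The difference between both statuses was -2.86 ± 0.61 for Rrm2 (limma voom adjusted p = 0.00341) and -1.90 ± 0.47 for Gmnn (limma voom adjusted p = 0.0146). Uhrf1 was higher in the Aire class in cells with no mitotic gene (1.52, adjusted p = 0.0187) and had 0.82 in cells with one (adjusted p = 0.122). Its difference did not pass (adjusted p = 0.639).

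Along the anti-RANKL time course, S-gene-rich cells were fewest at week 4. The isotype libraries had 36 of 1129 (3.19%, interval 2.24 to 4.39%) at week 2 and 62 of 1247 (4.97%, 3.83 to 6.33%) at week 10. After anti-RANKL the share was 11 of 1184 (0.929%, 0.465 to 1.66%) at week 2, 7 of 1340 (0.522%, 0.210 to 1.07%) at week 4, 8 of 658 (1.22%, 0.526 to 2.38%) at week 6 and 31 of 1172 (2.65%, 1.80 to 3.73%) at week 10, and the Aire trace had 30 of 1318 (2.28%, 1.54 to 3.23%). The interval of week 4 overlapped those of weeks 2 and 6. The interval of anti-RANKL lay below that of the isotype library of the same week at week 2 and at week 10. With all UMIs the shares were 42.1 and 25.4% in the isotype libraries, 30.7, 4.78, 8.66 and 17.9% after anti-RANKL and 23.0% in the Aire trace. Without cells of 2 or more T cell markers the week 4 share was 0.457% and that of isotype week 2 was 2.56%.

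The Aire class itself changed in size over the time course. It made up 64.3 and 62.6% of cells in the isotype libraries, 10.4, 2.76, 24.3 and 54.2% at weeks 2, 4, 6 and 10 after anti-RANKL, and 16.0% in the Aire trace. Cells with at least 1 mitotic gene went from 13.3 and 16.4% in the isotype libraries to 2.11, 2.61, 7.29 and 13.0%, and were 7.36% in the Aire trace. Within the Aire class, 4.55 and 5.63% of isotype cells were S-gene-rich. After anti-RANKL it was 3 of 123 (2.44%) at week 2, 0 of 37 at week 4, which allows a share of up to 8.11% by a limit of 3 counts and 9.49% by the exact binomial interval, 5 of 160 (3.12%) at week 6 and 4.57% at week 10. The Aire trace had 14 of 211 (6.64%). In the Ccl21a class the isotype libraries had 0.847 and 3.61%, the libraries after anti-RANKL 1.32, 0.474, 0.881 and 0.980%, and the Aire trace 1.38%.

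**Figure D3:**
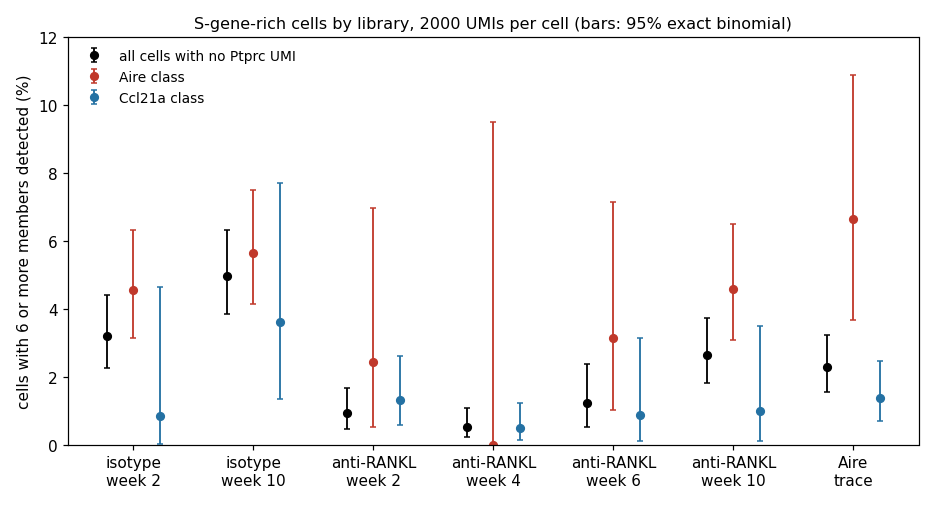
Share of S-gene-rich cells (percent) in each of the 7 libraries at 2000 UMIs per cell, for all cells, the Aire class and the Ccl21a class, with 95% exact binomial intervals. Over all cells the share falls to 0.522% at week 4 after anti-RANKL, and the intervals of the Aire class are wide where that class is small.

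The summed level of the members moved less than the share of S-gene-rich cells. It was 6.35 and 7.24 in the isotype libraries, 5.46, 4.42, 5.74 and 6.18 after anti-RANKL and 5.87 in the Aire trace. Against the isotype library of the same week, the ratio was 0.859 at week 2 (exact Poisson interval 0.796 to 0.927) and 0.854 at week 10 (0.796 to 0.915). Week 4 had 0.696 of the level of isotype week 2 and 0.611 of that of isotype week 10, and week 6 had 0.903 and 0.793, comparisons that share the 2 isotype libraries. Within the Aire class the ratio was 0.979 at week 2 (0.829 to 1.15) and 0.952 at week 10 (0.874 to 1.04), both with 1 in their interval. At week 4 the 37 cells of this class held 30 member UMIs, with ratios of 0.564 (0.379 to 0.811) and 0.508 (0.341 to 0.729) to the isotype libraries of weeks 2 and 10, and at week 6 the ratios were 1.06 (0.920 to 1.22) and 0.956 (0.830 to 1.10). Within the Ccl21a class it was 1.00 at week 2 (0.832 to 1.21) and 0.714 at week 10 (0.585 to 0.870). At week 4 it was 0.767 (0.638 to 0.929) and 0.662 (0.569 to 0.773), and at week 6 it was 0.843 (0.677 to 1.05) and 0.728 (0.601 to 0.882). Isotype week 10 had 1.14 of the level of isotype week 2. In summed libraries, fewer S-phase cells and less RNA per cell cannot be told apart.

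Single members were set side by side where both libraries had at least 20 UMIs together. At week 2, 5 of 30 members were past 2-fold lower after anti-RANKL, where 12.7% of all genes were, Clspn, Gmnn, Rrm2, Chaf1b and Uhrf1, and 2 were past 2-fold higher (9.09% of all genes), Pold3 and Ubr7. At week 10, 2 of 34 were past 2-fold lower (2.13% of all genes), Dscc1 and Uhrf1, and none was higher (3.32%). At week 4, 9 of 29 members were past 2-fold lower than isotype week 2 (18.1% of all genes) and 14 of 32 than isotype week 10 (16.5%), and 1 and 0 were past 2-fold higher (11.6 and 9.81%). The 14 were Mcm3, Mcm5, Mcm6, Gmnn, Rrm2, Tyms, Fen1, Clspn, Ung, Dtl, Rad51ap1, Uhrf1, Hells and Ccne2. At week 6, 4 of 31 (18.4%) and 5 of 32 (16.1%) were past 2-fold lower, and 1 and 0 higher (9.46 and 8.34%). Between the isotype libraries, 3 of 35 were past 2-fold higher at week 10 (2.73%), Ccne2, Rad51ap1 and Dscc1, and 0 lower (4.96%). The members' count at weeks 2 and 6 was near the share of all genes, and at week 10 it rests on 2 members.

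Uhrf1 had a level of 0.199 and 0.361 in the isotype libraries of weeks 2 and 10, of 0.0718, 0.0522, 0.0608 and 0.154 at weeks 2, 4, 6 and 10 after anti-RANKL, and of 0.106 in the Aire trace. All libraries after anti-RANKL were below both isotype libraries. The ratio to the isotype library of the same week was 0.360 at week 2 (interval 0.193 to 0.642) and 0.426 at week 10 (0.281 to 0.633). Rrm2 had 0.279 and 0.261 in the isotype libraries, 0.0802, 0.0672, 0.137 and 0.243 after anti-RANKL and 0.121 in the Aire trace. Its ratio went from 0.288 at week 2 (0.163 to 0.487) to 0.933 at week 10 (0.642 to 1.35). Gmnn had 0.252 and 0.237, then 0.122, 0.0821, 0.220 and 0.256, and 0.163 in the Aire trace. Its ratio was 0.485 at week 2 (0.299 to 0.771) and 1.08 at week 10. Rrm2 and Gmnn, over all cells of a library, were thus low at weeks 2 and 4 and near the isotype libraries at week 10. Gmnn within the Aire class had 0.289 and 0.288 in the isotype libraries. At weeks 2 and 4 after anti-RANKL it had 0.244 (6 UMIs) and 0.270 (2 UMIs). Rrm2 had 0.386 and 0.327 in this class, then 0.122 (3 UMIs) and 0. In the Ccl21a class, Gmnn had 0.0424 and 0.0602, then 0.0993 and 0.0593, and Rrm2 0.0847 and 0.151, then 0.0745 and 0.0356. The part of the smaller Aire class in the levels over all cells was not tested. Clspn rested on 1 to 4 UMIs at weeks 2, 4 and 6 after anti-RANKL, against 21 and 19 in the isotype libraries.

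Over all cells, Pcna and Slbp had intervals around 1 at week 2. Pcna had 0.554 and 0.621 in the isotype libraries and 0.553, 0.463, 0.365 and 0.520 after anti-RANKL, with a ratio of 0.999 at week 2 (0.776 to 1.29). Slbp had 0.779 and 0.878, then 0.747, 0.619, 0.935 and 0.862, with 0.959 at week 2 (0.774 to 1.19). Within the Aire class, Slbp had 0.882 and 0.909 in the isotype libraries. After anti-RANKL it had 2.03 (50 UMIs), 0.811 (6 UMIs), 1.91 (61 UMIs) and 0.953 in this class. In the Ccl21a class it had 0.975 and 0.723, then 0.588, 0.629, 0.661 and 0.907. Of the UMIs of Pcna and Slbp, 76.0 and 81.5% lay in cells that were neither S-gene-rich nor mitotic. It was also most of the UMIs for Gmnn (61.2%) and Clspn (67.9%), but not for Rrm2 (28.7%). Mcm6 had 0.186 and 0.317, then 0.186, 0.0970, 0.243 and 0.188, with a ratio of 0.999 at week 2 (0.639 to 1.56) and 0.593 at week 10 (0.400 to 0.867). Pold3 was highest at week 2 after anti-RANKL, with 0.215 against 0.102 in isotype week 2 (ratio 2.11, 1.27 to 3.63).

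**Figure D4:**
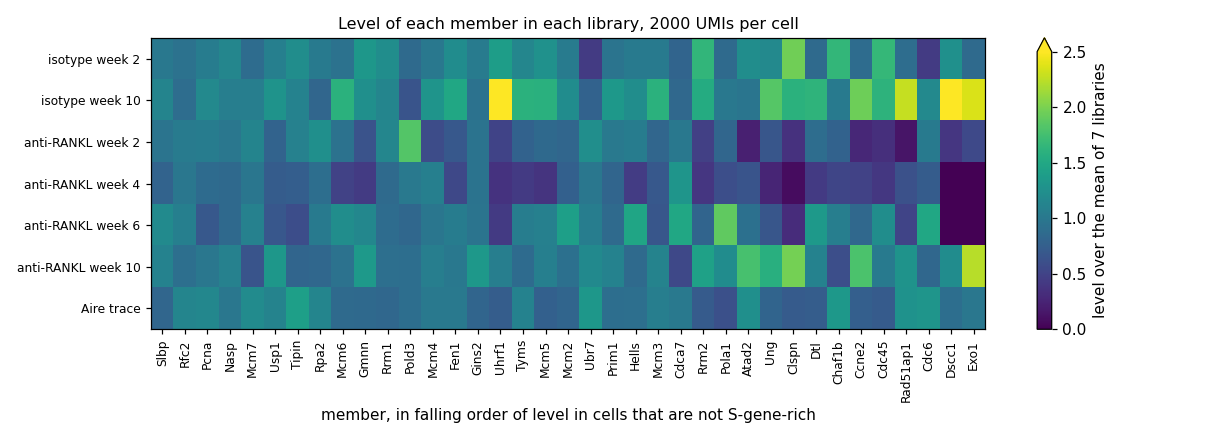
Level of each member in each of the 7 libraries at 2000 UMIs per cell, divided by its mean over the libraries (colour scale, capped at 2.5). Uhrf1, Rrm2 and Clspn are below their means at weeks 2, 4 and 6 after anti-RANKL and in the Aire trace. Over all cells of a library, Slbp lies between 0.619 and 0.935 UMIs per 10000 in all 7 libraries.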

How the data were processed

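The authors aligned the reads to mm10 with Cell Ranger 2.2.0, kept genes found in at least 3 cells of a library and filtered cells in Seurat 2.3.4. No step against doublets is named, and none was added here. What the authors deposited is ln(1 + x), a natural log, where x is a gene's UMIs scaled so that each cell sums to 10000. The methods name a factor 10 times smaller, on which a Ccl21a cutoff of 4 would mean another share of UMIs. The cutoffs were applied to the values as deposited. Whole UMIs were recovered from them in all 8453 cells (tolerance 0.001). Cells with no Ptprc UMI were thinned to 2000 UMIs without replacement. Summed UMIs per library and class were compared with limma 3.58.1 (voom, library as a block, genes with at least 50 UMIs over all sums, Benjamini-Hochberg over all genes tested, threshold 0.05), in libraries with at least 10 cells per class, or 5 where class and mitotic status were crossed.

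In both fits on mitotic status the sums of a library were thinned to equal totals, and in all fits the offset before the log was scaled to each sum's total. The equal totals were not planned. They were chosen after results with unequal totals had been seen, members included, because unequal totals gave false calls in simulated data. The scaled offset was also chosen on simulated data, before any real fit had been seen. Each library is 1 pool, and differences in level between pools are taken up by the library block. The p-values measure how the class difference within a library varies over pools. The pools differ in treatment, age and genotype.

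Shares have exact binomial intervals and ratios of summed UMIs exact Poisson intervals, which cover counting error only. Members past the threshold are named, and of other lists up to 6 genes by size of the change. The members and lists were chosen with earlier results of these data known. Reads of Pcna, Tyms and Nasp may be shared with annotated pseudogenes, and 7 members overlap another gene on the same strand, so their counts are uncertain. Plots were drawn with matplotlib 3.10.9 under Python 3.11.15. Tables joining several libraries were left aside.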

Additional observations from a re-analysis of the deposited data

Results flagged for a closer look

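The cells set aside for a Ptprc UMI held S-gene-rich cells too, which were outside the comparisons. At 2000 UMIs these were 8 of 228 cells (3.51%, exact binomial interval 1.53 to 6.80%), 3 each in isotype week 2 and the Aire trace and 1 each in anti-RANKL weeks 2 and 10. The T cell markers summed to 13.1 UMIs per 10000 in the cells with a Ptprc UMI, against 0.714 in the cells without one.

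With all UMIs, the difference between the Aire and Ccl21a classes was smaller in cells with a mitotic gene than in cells with none for Rrm2 (-2.86 on the log2 scale, limma voom adjusted p = 0.00341) and for Gmnn (-1.90, limma voom adjusted p = 0.0146), by a test of the difference itself. Both genes had too few UMIs to be tested at 2000 UMIs and equal totals.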

How the results depend on the processing

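No paired analysis was possible because each condition has 1 library, so no replicate numbers pair samples across conditions. The fits compare classes of cells within a library, and leaving out this library block called 8 of 31 members higher between the classes (22.1% of all genes), 300 genes by mitotic genes, and in the crossed fit 246 genes with and 289 without a mitotic gene and 2 for the difference.

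Between the classes, Uhrf1 and Gmnn passed in all 21 alternatives, Rrm2 missed in 3, Clspn in 4, Slbp in 1 and Cdca7 in 10 of 20. Members higher, of those tested and beside the share of all genes higher, were 8 of 35 at 4000 UMIs (28%), 24 of 37 with all UMIs (37%; 10354 genes called), 3 of 30 without the deepest 5% of cells (19.6%), 9 of 30 with Ccl21a above 5 (23%), 3 of 29 with Aire read from thinned UMIs (16.4%), 13 of 31 with voom's fixed offset (25.8%) and 7 of 17 with equal totals (21.1%). Members lower were 0 at 4000 UMIs, with all UMIs, another seed, Ccl21a above 5, limma trend and equal totals. Leaving out 1 library gave 4 to 11 members higher (11 without anti-RANKL week 4), 0 to 1 lower and 3930 to 5140 genes called. In this comparison 75 values of single members turned sign, most often of Prim1 (11), Rfc2 (9), Nasp (8), Fen1 (7) and Rrm1 (7). Of the members given with values in the comparison, 14 did. These were Cdca7 at 4000 UMIs (0.29), Mcm6 without the deepest cells (-0.24), Mcm7 with another seed (0.22) and equal totals (0.042), Mcm5 with thinned Aire (-0.034), Mcm2 at 4000 UMIs (-0.17), with another seed (-0.080), without the deepest cells (-0.44), with Aire above 1 (-0.082) and thinned Aire (-0.84), and Mcm4 with another seed (-0.46), without the deepest cells (-0.25), with Aire above 1 (-0.053) and thinned Aire (-0.12). The cause was not tested.

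By mitotic genes, Rrm2, Tyms and Mcm7 passed in every alternative that could test them (20, 13 and 11). Rfc2 lost its call in 6, Pcna in 3, Usp1 in 2 and Gmnn in 1, and Slbp gained one in 9 and Nasp in 8. Members higher of those tested, genes called in either direction and the share of all genes higher were 25 of 25, 1567 and 11.4% at 4000 UMIs, 33 of 36, 3926 and 13.1% with all UMIs, 23 of 31, 3026 and 4.58% with totals as summed, 30 of 31, 2932 and 19.3% with totals as summed and voom's fixed offset, 4 of 4, 229 and 7.71% without the deepest cells, 1 of 5, 270 and 8.47% within the Aire class and 4 of 12, 247 and 2.39% for 1 mitotic gene against none. Members higher were 4 of 5 without T cell marker cells (11.7%), and genes called were 188 with genes of at least 1 UMI and 280 with limma trend. Leaving out 1 library gave 3 to 6 members, 0 lower, and 344 to 656 genes (361 without isotype week 2, 344 without anti-RANKL week 10). Within the Ccl21a class too few libraries were left to fit.

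In the crossed fit, members called and genes called of those tested, with a mitotic gene, without one and for the difference, were 1 (higher), 1 (lower) and 0 of 13 and 1333, 1560 and 137 of 4628 at 4000 UMIs, and 1 (lower), 5 (4 higher) and 2 (lower) of 32 and 1995, 2378 and 238 of 7261 with all UMIs. They were 6, 1 and 0 of 30 (all higher, as were 23.2, 12.9 and 3.78% of all genes) and 3034, 2211 and 453 of 10993 with totals as summed. With voom's fixed offset as well they were 7 (lower, as were 23.5% of all genes), 8 (7 higher, 21.4%, and 1 lower, 16.8%) and 6 (lower, 18%) of 30 and 2974, 4194 and 2096 of 10993, so that the direction with a mitotic gene turned between both offsets. Genes called were 222, 238 and 3 with Ccl21a above 5, and 255, 260 and 3 with limma trend. With genes of at least 1 UMI, 1 of 37 members was called with a mitotic gene and 35 genes for the difference. Without the deepest cells it was the 1 member tested without a mitotic gene and 27 genes for the difference, with thinned Aire 18 genes for the difference, and with median-of-ratios size factors 1 member both without a mitotic gene and for the difference. Leaving out 1 library gave 0 members throughout and 168 to 453, 172 to 423 and 1 to 69 genes, lowest in all 3 without the Aire trace. For the difference it was 22 without isotype week 2 and 37 without anti-RANKL week 10.

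The share of S-gene-rich cells in isotype weeks 2 and 10, anti-RANKL weeks 2, 4, 6 and 10 and the Aire trace was 6.91, 8.90, 2.79, 1.94, 3.95, 5.29 and 4.78% for at least 4 members, and 7.26, 11.2, 2.54, 2.53, 6.25, 7.38 and 5.10% at 4000 UMIs. For at least 8 members it was 1.95 and 2.73% in isotype weeks 2 and 10, 0.456 and 1.37% in anti-RANKL weeks 6 and 10 and 1.21% in the Aire trace. Without the deepest 5% of cells it was 2.24% in isotype week 2 and 0.444 and 1.53% in anti-RANKL weeks 2 and 10. Within the Aire class it was 4.55% in isotype week 2, 2.44, 0, 3.12 and 4.57% in anti-RANKL weeks 2, 4, 6 and 10 and 6.64% in the Aire trace. The equal totals, the fixed offset, their seed and the shares within the Aire class were chosen after seeing the data. At 2000 UMIs most members had too few UMIs for the fits on mitotic genes, so the lack of a call there says nothing of their change.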

Other observations

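Outside the members, the genes whose level per cell went most with the number of members detected, by Pearson correlation across cells averaged over 7 libraries, were 2810417H13Rik (mean r 0.45), Cdk1 (0.31), Hmgb2 (0.29), Top2a (0.29), Stmn1 (0.28), Hist1h2ap (0.27), Tubb5 (0.24), Tuba1b (0.22), Dut (0.22) and H2afz (0.21). The cells of a library share that library, and all were at 2000 UMIs, so these values are a description over 8048 cells. Top2a and Cdk1 are among the 4 mitotic genes that sort the cells. Among the members, the correlation of a member with the number of the others was highest for Rrm2 (0.32) and Tyms (0.25) and lowest for Ubr7 (0.01), Pola1 (0.04) and Pold3 (0.05).

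The Aire class made up 71.6% of the S-gene-rich cells with no mitotic gene, 78.1% of those with 1, 55.6% of those with 2 to 4, 78.8% of mitotic-only cells (156) and 29.3% of the 7270 cells that were neither. The Ccl21a class made up 14.9, 10.9, 31.5, 9.62 and 39.1% in the same order. These shares pool libraries that differ in both classes. In the isotype libraries of weeks 2 and 10, the Aire class made up 60.7 and 58.4% of the cells that were neither and 80.0% of the S-gene-rich cells with no mitotic gene in each (10 and 20 cells), and its share of those with 2 to 4 ran from 0 to 92.3% over the 7 libraries.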
